A study of Mus musculus with 24 samples.

Results

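Group 5 was a set of 253 single haematopoietic stem cells (HSCs), 17.7% of the 1430 cells in the deposited index-sort record, which gave every cell a whole number from 1 to 10. Its members were the wells numbered 5 in that record, joined by well name to the deposited table of unique molecular identifier (UMI) counts. The record does not state what the number means, and it may have been made from the same UMI counts. Gene differences between groups are therefore described by their size, their standard error (SE) and their repetition over plates, with no p-value. The SE leans on a variance shared over genes, so it does not measure how far a single gene varied between plates. The plate values show that spread. The comparison cells were the 1167 cells of groups 2 to 4 and 6 to 10, called the other cells below. The 10 cells of group 1 were left out.

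The study examined HSCs of -60/DR5-TA-RA-CFP mice, which carry a retinoic acid responsive transgene encoding cyan fluorescent protein (CFP). All cells compared here carried this reporter and were sorted from bone marrow as LSK cells (negative for lineage markers, positive for Kit and Sca-1) that were CD150+ and CD48-, with mixed CFP brightness, with no treatment named. They were sorted singly into 384-well plates with barcoded primers, while the cytometer recorded scatter and fluorescence for each well. The labels list 8 single-cell batches, but the UMI table and the record name only 4 sort plates (2, 3, 4 and 5). The plates stood in as technical replicates of a pooled collection, so the spread between them says nothing of the spread between animals, and age and sex were not given for these cells.

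HSCs sustain blood formation for life and are mostly quiescent in adult marrow. A stem cell that leaves quiescence first raises growth and replication-licensing genes, such as those of the Mcm helicase and the clamp Pcna. Histone genes follow in S phase, and the spindle and cyclin-dependent kinase genes peak in G2 and M.

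Group 5 held 34 of 356 recorded cells in plate 2 (9.55%, 95% exact binomial interval 6.70 to 13.1%), 75 of 345 in plate 3 (21.7%, 17.5 to 26.5%), 61 of 361 in plate 4 (16.9%, 13.2 to 21.2%) and 83 of 368 in plate 5 (22.6%, 18.4 to 27.2%). The intervals cover counting error only. Plate 2 was low in group 5 and did not overlap the intervals of the other plates. It stood apart in its make-up, with 52 cells of group 7 against 11, 7 and 16 in plates 3, 4 and 5, and 75 of group 9 against 37, 40 and 36. It also held little of the interferon-inducible membrane genes Ifitm1 and Ifitm3: Ifitm1 in group 5 was 227 CPM (the gene's share of the library's UMIs, scaled to a total of 1000000) there, against 2802, 2471 and 2766 in plates 3, 4 and 5. The other cells showed the same plate difference, with 225 CPM against 2303, 2571 and 2260. No well was shared between plates. UMIs of group 5 summed per plate came to 44085, 107778, 76484 and 119647, against 434711 to 437125 for the other cells, so plate 2 is the least precise of the group 5 libraries.

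Group 5 held RNA of the HSC list at a level near that of the other cells, which were sorted in the same way. Of 40 measured genes of the HSC list, 39 had at least 1 UMI in group 5, Gfi1 being the exception. Erythroid genes passed this low bar too, with 0 of 16 at 0, so the count does not identify the cells. The summed level of the HSC list was 12450 ± 2329 CPM (SD, n = 4 plates) against 11571 ± 1540 in the other cells. By plate the sum was 8983, 13602, 13258 and 13958 CPM in group 5 and 9265, 12457, 12345 and 12216 CPM in the other cells. Group 5 was thus below the other cells in plate 2 and above them in plates 3, 4 and 5, and the ranges overlapped. Of the genes behind the sort, Kit had a UMI in 80 of 253 cells (31.6%) against 31.5% of the other cells, Ly6a, which encodes Sca-1, in 14 (5.53%) against 5.57%, and Slamf1, which encodes CD150, in 5 (1.98%) against 2.66%. Cd48 had no UMI in group 5 and 1 UMI in the other cells.

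Many defining genes of mature lymphocytes, neutrophils, mast cells and endothelium were at 0, while genes of the erythroid, megakaryocyte and myeloid progenitor lists had UMIs. In those 3 lists 0 of 16, 3 of 23 and 2 of 16 genes were at 0, and they summed to 4019 ± 279, 2643 ± 48.1 and 2949 ± 264 CPM (SD, n = 4 plates) in group 5, against 4094 ± 373, 2787 ± 203 and 3152 ± 224 CPM in the other cells. Car2, of the erythroid list, gave 964 of its 1423 UMIs. The T and B cell genes Cd3e, Cd3d, Cd3g and Ms4a1, the lymphoid progenitor genes Il7r and Rag2, the neutrophil genes S100a8, S100a9, Ngp, Camp and Ltf, the mast cell genes Cpa3, Fcer1a and Ms4a2 and the endothelial genes Cdh5 and Kdr had no UMI in the 253 cells. In all, 8 of 13 lymphoid progenitor, 8 of 15 mature lymphocyte, 8 of 9 mast cell, 7 of 14 mature neutrophil and macrophage and 7 of 12 endothelial and stromal genes were at 0. The only mast cell gene with UMIs was Gata2, which HSCs express too. The mature lymphocyte list summed to 535 to 817 CPM per plate in group 5 and 676 to 805 in the other cells, mostly from the MHC class II genes H2-Aa and Cd74. The neutrophil and macrophage list summed to 45.4 to 176 CPM in group 5 and 70.9 to 163 in the other cells. The endothelial and stromal list summed to 68.1 to 157 CPM in group 5 and 36.7 to 114 in the other cells.

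Group 5 was a low-cycling group of ordinary depth. Its cells had a median of 1246 UMIs (588 to 3403), against 1265 (511 to 6026) in the other cells, and the ratio of plate medians was 1.08, 0.987, 0.895 and 0.960 in plates 2, 3, 4 and 5. After each cell was thinned to 1000 UMIs, genes of the cell-cycle lists (S phase plus G2/M) made up 0.573, 0.672, 0.839 and 0.691% of the UMIs of group 5 and 1.02, 1.06, 1.29 and 1.28% of those of the other cells. Group 5 was lower in 4 of 4 plates, with a difference of -0.469 ± 0.0860 percentage points (SD), and the ranges did not overlap. Thinning kept 187 of 253 cells of group 5 and 829 of 1167 other cells, and without it the shares were 0.641 ± 0.0596% and 1.02 ± 0.0864%. Of the 20% of each plate's cells that ranked highest in these genes, few belonged to group 5: 9 of its 253 cells (3.56%) were among them, against 278 of 1167 other cells (23.8%). Single cells of group 5 ran from 0 to 2.30% with a median of 0.600%, and 2 of 187 had no UMI of the lists in 1000. Among the groups it was not the lowest. The mean thinned share was 0.552% in group 2, 0.571% in group 4, 0.645% in group 3, 0.694% in group 5, 0.755% in group 7, 0.900% in group 6, 1.36% in group 8, 2.10% in group 9 and 2.81% in group 10.

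**Figure D1:**
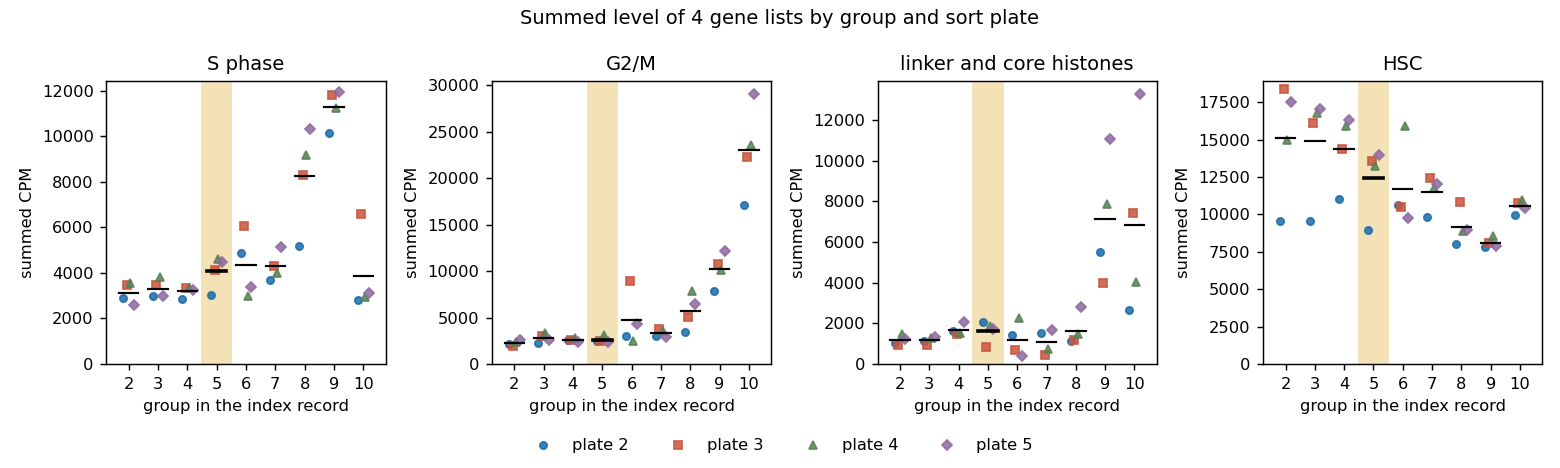
Summed CPM of the members of 4 gene lists (vertical axes, from 0) in groups 2 to 10 (horizontal axes), with 1 point per sort plate and a bar at the mean of the 4 plates. Group 5 is shaded. Its S phase sum of 3017 to 4628 CPM lies above that of group 4 in 4 of 4 plates and below that of group 8, while its G2/M sum of 2324 to 3086 CPM lies with those of groups 2 to 4.

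Of the 15 genes furthest below the other cells, among those with a mean of at least 100 CPM, most were cell-cycle or histone genes, with the platelet chemokine Pf4 and the phosphatase gene Pgp as exceptions. A gene was counted as higher or lower when its log2 fold change from edgeR was at least 0.58 in size and its CPM differed the same way in 4 of 4 plates. Of 5250 genes that passed a filter on low counts, 265 were lower (5.05%) and 115 were higher (2.19%). The median log2 fold change over all of them was 0.02 and the median SE 0.33, so single genes of low level are poorly measured. A gene could pass the filter through its level in 1 of the 2 sets alone. Its direction was then partly set by the filter, so these counts are a description. Of the 2176 genes with a mean of at least 100 CPM, 56 were lower and 25 higher.

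Genes of mitosis were lower together. Of 28 tested genes of the G2/M list, 24 were lower and 0 higher, with a median log2 fold change of -1.57. The list held 889 UMIs in group 5, 341 of them from Tuba1b, and 29 of its 49 measured genes had more than 5. Genes near 0 in group 5 passed the filter through the other cells, so their direction was set in advance and adds no support. Ube2c, the ubiquitin-conjugating enzyme of the anaphase-promoting complex, was at 22.7, 0, 26.1 and 41.8 CPM in group 5 and at 103, 131, 202 and 249 CPM in the other cells (log2 fold change -2.96 ± 0.39, SE). These group 5 levels rest on 0 to 5 UMIs per plate. Top2a, the topoisomerase that untangles replicated chromosomes, was at 68.1, 139, 183 and 58.5 CPM against 103, 384, 368 and 522 CPM (-1.75 ± 0.21). Group 5 was lower in every plate, although its plates 3 and 4 lay above the plate 2 value of the other cells. Tuba1b, an alpha-tubulin gene of the spindle, was the most precisely measured: 975, 974, 1020 and 961 CPM against 2224, 1859, 2155 and 2018 CPM (-1.03 ± 0.08), with no overlap and little spread in either set. The chromatin protein gene Hmgb2 (181 ± 40.9 against 449 ± 64.3 CPM, SD, n = 4 plates), the kinetochore gene Spc24 (60.9 ± 12.2 against 183 ± 24.4 CPM) and H2afx, whose histone marks DNA breaks (110 ± 32.7 against 275 ± 14.2 CPM), did not overlap either. The mitotic kinase gene Cdk1 (-1.16 ± 0.30), its binding partner Cks1b (-1.29 ± 0.28), the survivin gene Birc5 (-1.82 ± 0.40) and the anaphase activator Cdc20 (-1.93 ± 0.67) were lower too.

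Replication and histone genes followed, with a split inside the S phase list. Of its 32 tested genes, 13 were lower and 0 higher, with a median of -0.60. Thymidine kinase Tk1 was at 0, 46.4, 52.3 and 41.8 CPM in group 5 and at 151, 232, 230 and 220 CPM in the other cells (-2.41 ± 0.32), with no overlap. Thymidylate synthase Tyms (-1.86 ± 0.40), the ribonucleotide reductase subunit Rrm2 (-1.50 ± 0.59), DNA ligase Lig1 (-0.95 ± 0.19), the methylation cofactor Uhrf1 (-0.86 ± 0.30) and the maintenance methyltransferase Dnmt1 (-0.68 ± 0.16) were also counted as lower. With the other groups weighted equally, Lig1 (-0.52), Dnmt1 (-0.46) and Uhrf1 (-0.34) did not reach 0.58. Genes that load and clamp the replication machinery were nearer to the other cells and did not reach the rule: Pcna at -0.36 ± 0.16, Mcm2 at -0.40 ± 0.21, Mcm3 at -0.19 ± 0.23, Mcm4 at -0.32 ± 0.26, Mcm5 at -0.31 ± 0.17 and Mcm6 at -0.38 ± 0.13. Mcm7 was at -0.61 ± 0.18 but higher in 1 plate. Of 10 tested linker and core histone genes, 7 were lower, with a median of -1.34. Hist1h1b, a linker histone gene, was at 45.4, 64.9, 261 and 125 CPM against 488, 338, 550 and 999.7 CPM (-2.28 ± 0.18), with no overlap. Hist1h1a (-1.72 ± 0.26) and Hist1h1d (-1.71 ± 0.26) did not overlap either, while the core histone gene Hist1h2ae (-1.48 ± 0.23) did, with plate 5 of group 5 (184 CPM) above plate 2 of the other cells (147 CPM). The plates themselves differed, with plate 5 of the other cells highest in all 4 of these histone genes.

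The promoters of the mitotic and replication genes are shown because the genes of each list lay on the same side of the other cells. The stretches below lie directly upstream of the RefSeq start sites (build GRCm38.p6) and read 5′ to 3′ on the gene's strand. Capitals mark 3 motifs on either strand: TTTGAA (the core of the cell cycle homology region), CCAAT (the box bound by NF-Y) and TTTGGCGC (an E2F-type site). No capitals of different motifs overlap.
Top2a, chr11:99024190-99024329, minus strand: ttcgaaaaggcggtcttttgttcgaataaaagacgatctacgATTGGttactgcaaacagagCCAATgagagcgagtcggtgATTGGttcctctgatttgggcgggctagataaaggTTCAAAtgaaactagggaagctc
Ube2c, chr2:164769789-164769928, plus strand: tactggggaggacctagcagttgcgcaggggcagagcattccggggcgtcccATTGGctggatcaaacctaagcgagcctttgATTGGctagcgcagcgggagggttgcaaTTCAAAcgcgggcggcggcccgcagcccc
Mcm5, chr8:75109349-75109508, plus strand: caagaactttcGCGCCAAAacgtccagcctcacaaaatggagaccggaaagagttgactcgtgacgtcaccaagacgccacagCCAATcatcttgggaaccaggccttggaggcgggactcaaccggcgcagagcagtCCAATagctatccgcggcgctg
Mcm6, chr1:128359706-128359845, minus strand: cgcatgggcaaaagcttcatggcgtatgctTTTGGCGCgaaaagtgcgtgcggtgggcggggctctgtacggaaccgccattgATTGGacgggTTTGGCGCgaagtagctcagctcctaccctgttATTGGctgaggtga
In Top2a and Ube2c a TTTGAA core starts 23 and 29 bases before the start site, with CCAAT boxes further upstream in each printed stretch. In Mcm5 the E2F-type letters start 149 bases before the start site, and in Mcm6 they start at 110 and 47 bases before it. Over the RefSeq windows (250 bases before to 50 after the start), TTTGAA was found for 16 of the 19 lower G2/M genes with an entry in the table, of 24 (84.2%), against 20.2% of all 27025 symbols, and at least 2 CCAAT boxes for 11 of 19 (57.9%) against 13.3%. TTTGGCGC was found for 0 of these 19 and in 0.585% of all symbols. The lower genes were not compared with the rest of the G2/M list, so these shares do not set them apart from it. These matches describe the sequence and show no binding.

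The comparison was repeated without strongly cycling cells. With the 20% of each plate's cells highest in S and G2/M genes left out, 102 of 4024 tested genes were lower and 65 higher. Of these, 65 of the 102 and 34 of the 65 were among those counted with all cells. Of 10 G2/M genes and 20 S phase genes that could then be tested, 0 were lower, with medians of -0.19 and 0.05. With so small a share counted over all genes, a count of 0 says little about lists of this size. Tuba1b was at -0.33, Hmgb2 near 0 and Hist1h1b at -0.09 in that fit, and Top2a, Lig1 and Hist1h2ae turned to 0.03, 0.05 and 0.49. The cells were left out by the UMIs of these same lists, so the values of list members describe the remaining cells and test nothing.

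Genes above the other cells were fewer and of mixed roles. Rtp4, an interferon-inducible chaperone gene, was at 250, 288, 183 and 134 CPM in group 5 and at 43.6, 117, 129 and 105 CPM in the other cells (log2 fold change 1.03 ± 0.25, SE). The ranges did not overlap, and the levels rest on 11, 31, 14 and 16 UMIs. Dusp2, a phosphatase that dampens MAP kinase signalling, was at 454, 186, 301 and 217 CPM against 158, 175, 126 and 108 CPM (0.94 ± 0.21), and plate 3 was the plate in which the sets were closest. Stat3, the transcription factor downstream of gp130 cytokines and thrombopoietin, was at 726, 362, 458 and 384 CPM against 316, 230, 258 and 270 CPM (0.78 ± 0.15). Every group 5 plate lay above every plate of the other cells, and Stat3 had the smallest SE of these genes. Cish, a cytokine-induced inhibitor of JAK-STAT signalling, was at 136, 111, 235 and 117 CPM against 87.1, 104, 87.4 and 82.4 CPM (0.70 ± 0.28).

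Dtx3l, an interferon-inducible ubiquitin ligase gene (0.70 ± 0.27), rested mostly on plate 2, where it was 318 CPM in group 5 against 82.5. It was 176 against 108 CPM in plate 5, and 102 and 91.5 CPM against 98.9 and 89.7 in plates 3 and 4. Without plate 2 its log2 fold change was 0.35. The splicing regulators Rbm5 (170 ± 61.2 against 98.7 ± 34.3 CPM) and Mbnl2 (126 ± 28.6 against 74.6 ± 7.32 CPM, both SD, n = 4 plates) were higher, as were Mat2b of methionine metabolism (155 ± 21.0 against 86.1 ± 19.6 CPM) and Ypel3, a growth-suppressive gene (412 ± 134 against 254 ± 79.8 CPM). Edem2 of glycoprotein turnover in the endoplasmic reticulum (0.68 ± 0.24), the membrane transporter gene Atp13a1 (0.65 ± 0.30), Gapvd1 of endocytosis (0.67 ± 0.29), the RNase P subunit Pop7 (0.71 ± 0.26), the myosin gene Myo18a (0.75 ± 0.28) and Ccdc55 (0.83 ± 0.29) completed the 15 with the largest positive fold changes. With the most strongly cycling cells left out, 10 of these 15 genes stayed above 0.58, among them Mat2b (0.90), Dusp2 (0.73), Rtp4 (0.69) and Rbm5 (0.63). Dtx3l (0.51), Stat3 (0.49), Edem2 (0.45), Ypel3 (0.38) and Cish (0.34) did not. With the other groups weighted equally, Cish (0.56), Ypel3 (0.56) and Atp13a1 (0.42) did not reach it.

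**Figure D2:**
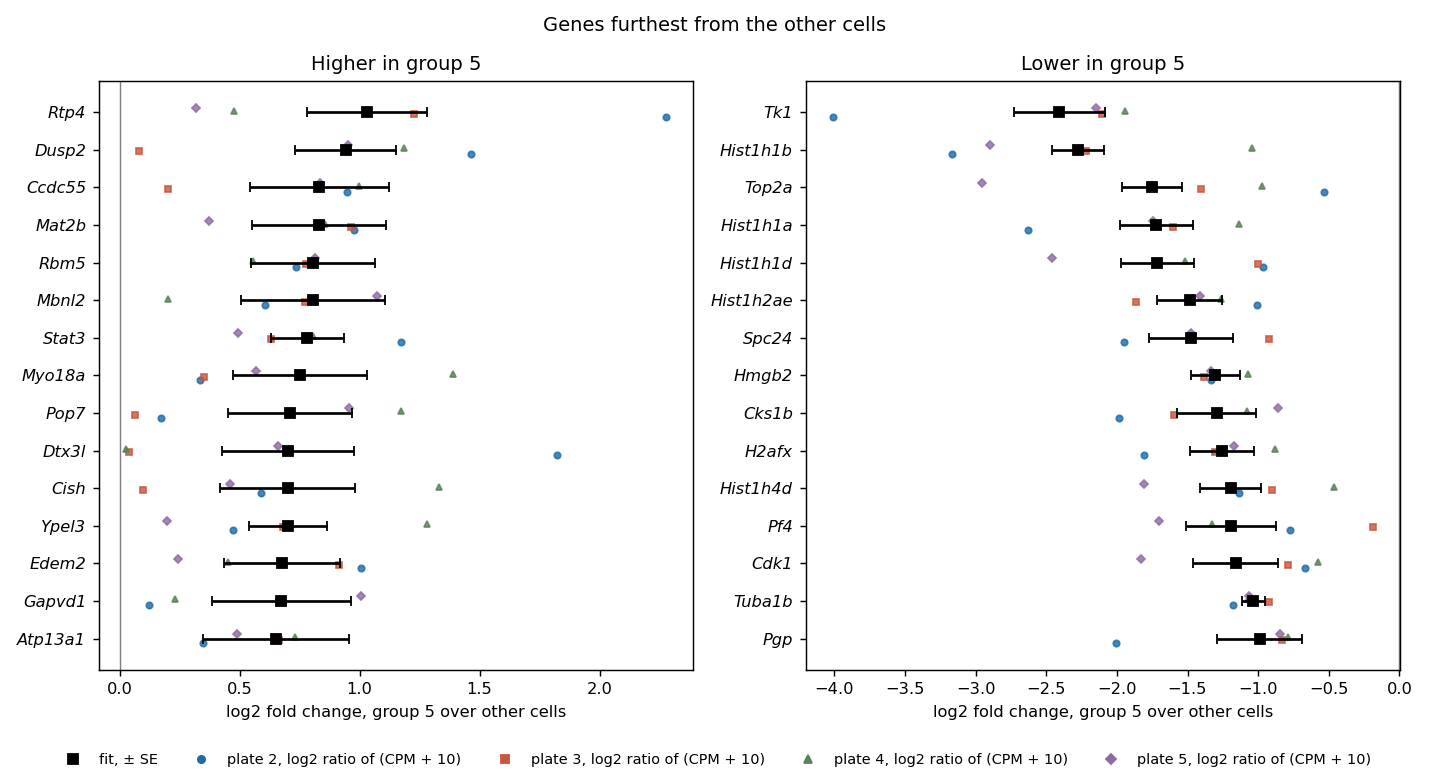
Log2 fold change of group 5 over the other cells (horizontal axes) for the 15 genes furthest above and the 15 furthest below, among genes with a mean of at least 100 CPM and the same direction in 4 of 4 plates. Black squares with bars are the edgeR estimate ± SE, and coloured points are the log2 ratio of (CPM + 10) in each plate. Points of 1 gene often lie more than 1 log2 unit apart, as for Rtp4, and those of Tuba1b lie close together.

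HSC genes were near the other cells as a list. Of 34 tested genes, 0 were higher and 1 was lower, the homeobox gene Hoxa9 (0, 27.8, 13.1 and 91.9 CPM against 110, 57.5, 50.6 and 98.4 CPM, -0.89 ± 0.41), with a list median of 0.14 against 0.02 over all genes. Mecom, a transcription factor of HSC self-renewal, was at 272, 223, 118 and 217 CPM against 55.0, 106, 131 and 110 CPM (0.99 ± 0.25), higher in 3 of 4 plates and lower in plate 4. Txnip, an inhibitor of glucose uptake, was at 907, 1160, 1399 and 1555 CPM against 624, 863, 991 and 1007 CPM (0.55 ± 0.09), higher in 4 of 4 plates but just short of 0.58. The transcription factor gene Hlf was at 0.47 ± 0.14, Ifitm1 at 0.21 ± 0.06, Procr at 0.17 ± 0.30, Mllt3 at -0.17 ± 0.22 and Pdzk1ip1 at -0.15 ± 0.11. With the most strongly cycling cells left out the HSC median was -0.16.

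Megakaryocyte genes split. Of 17 tested, Selp, which encodes P-selectin, was higher (136, 64.9, 52.3 and 58.5 CPM against 36.7, 36.8, 29.9 and 36.6 CPM, 1.02 ± 0.43), without overlap. The von Willebrand factor gene Vwf (22.7, 37.1, 39.2 and 66.9 CPM against 82.5, 92.0, 66.7 and 105 CPM, -0.96 ± 0.39), the platelet chemokine Pf4 (-1.19 ± 0.32) and the entry for the platelet receptor gene Gp1bb, which also names Sept5 (-0.69 ± 0.52), were lower. The list median was -0.03. Of 8 tested immediate early genes Dusp2 was higher, and Nfkbia, the NF-kappaB inhibitor, was lower (22.7, 158, 105 and 125 CPM against 316, 198, 138 and 181 CPM, -0.73 ± 0.24). Without plate 2 Nfkbia was at -0.40. Of 19 interferon genes Rtp4 alone was counted (median 0.04), and of 7 retinoic acid genes 0 were higher and 1, Hoxa9, was lower (median 0.23).

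Few genes of the housekeeping programmes were counted, although several list sums shifted the same way in 4 of 4 plates. The proteasome sum was lower without overlap (5692 to 6319 CPM against 6635 to 7073 in the other cells). So was the spliceosome sum (10030 to 10888 against 11102 to 11855 CPM). The oxidative phosphorylation sum was lower and the ribosomal protein and nucleolar sums higher, with overlap. The heat shock and redox sums had no shared direction. By mean over plates, from high to low, group 5 ranked 6 of 9 groups in the ribosomal protein sum. It held 160006 CPM there, below groups 2, 3, 6, 7 and 8 at 192309, 181176, 178331, 170632 and 166545. In the spliceosome sum it also ranked 6, at 10545 CPM, above groups 2, 3 and 4 at 8974, 9618 and 10068. Its proteasome sum ranked 7, at 5997 CPM, next to 5914 and 5947 in groups 4 and 7. The shifts thus did not hold against every group by mean. Of 64 ribosomal protein genes 0 were higher and 2 lower (median 0.06), of 68 oxidative phosphorylation genes 0 and 2 (-0.11), of 25 proteasome genes 0 and 1 (-0.20, with 23 of 25 below 0), of 37 spliceosome genes 0 and 0 (-0.14), of 26 nucleolar and translation genes 0 and 1 (0.07), of 11 heat shock genes 0 and 0 (-0.14) and of 18 redox genes 0 and 0 (0.01). Of 23 actin cytoskeleton genes, 0 were counted, but 19 lay above 0 (median 0.23), and the list sum was above that of the other cells in 4 of 4 plates, at 27152, 20579, 25862 and 25676 CPM against 22119, 19029, 21277 and 21802 CPM. The actin gene Actb alone gave 4662 of the list's 8465 UMIs in group 5, and its log2 fold change was 0.35 ± 0.04. The 9 glycolysis, 8 MHC class I, 8 erythroid, 7 myeloid progenitor and 4 multipotent progenitor genes tested gave no count in either direction. The multipotent progenitor sum was still above the other cells in 4 of 4 plates, with overlap. It was 975, 1030, 719 and 802 CPM against 924, 741, 655 and 641 CPM, and all 4 tested genes lay above 0 (median 0.21).

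By root mean square difference of log2 CPM over the 5250 genes, group 5 was most like group 4 (0.390) and then group 8 (0.516), followed by group 3 (0.519). This measure also grows as a group's UMI total falls, and groups 4 and 8 held 408216 and 288267 UMIs of these genes, against 169289 in group 3. Groups 4 and 8 held 330 and 202 cells. Replication genes differed from both, in opposite directions.

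Against group 4, group 5 had more of the genes that license and copy DNA. Of 2433 tested genes, 50 were higher (2.06%) and 69 lower (2.84%). Of 15 tested S phase genes, 5 were higher and 0 lower, with a median of 0.28, and 12 of 15 lay above 0. Pcna was at 227, 288, 275 and 318 CPM in group 5 and at 88.0, 93.7, 220 and 69.1 CPM in group 4 (log2 fold change 1.25 ± 0.27, SE), without overlap. Mcm5 was at 227, 269, 196 and 309 CPM against 150, 173, 146 and 92.1 CPM (0.82 ± 0.26), also without overlap. Lig1 was at 204, 102, 235 and 201 CPM against 96.8, 72.1, 91.5 and 115 CPM (0.93 ± 0.33), with plate 3 of group 5 inside the range of group 4. Mcm2 (0.73 ± 0.33) and Mcm4 (0.62 ± 0.39) were the other 2, and Nme1, a nucleoside diphosphate kinase gene, was at 408, 612, 575 and 535 CPM against 273, 332, 293 and 196 CPM (0.96 ± 0.18). Mitotic genes did not separate the groups: of 7 tested G2/M genes 0 were counted either way, with a median of -0.01, and Tuba1b was at -0.01 ± 0.12.

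Genes lower in group 5 than in group 4 were of mixed roles. Of 27 HSC genes, Kit (291 ± 131 against 465 ± 165 CPM, SD, -0.74 ± 0.19) and Pdzk1ip1 (749, 538, 497 and 702 CPM against 1003, 786, 1015 and 956 CPM, -0.61 ± 0.13) were lower in group 5, and 23 of 27 lay below 0 (median -0.19). Nfkbia was at 22.7, 158, 105 and 125 CPM against 370, 274, 201 and 230 CPM (-1.18 ± 0.28), and Nfkb1, an NF-kappaB subunit gene, at 159, 102, 118 and 167 CPM against 370, 216, 220 and 219 CPM (-0.87 ± 0.27), both without overlap. Ier3, an early response gene (-0.90 ± 0.38), Elf1, an ETS family factor (-1.13 ± 0.34), the MHC class II gene H2-Eb1 and the peptide-loading gene Tapbp were lower as well. The entry for Serpina3f, a serine protease inhibitor, which also names Serpina3g, was at 544, 677, 667 and 777 CPM against 1540, 1024, 1143 and 1266 CPM (-0.83 ± 0.12). Cited2, a regulator of HSC quiescence, was at 363, 278, 327 and 150 CPM against 484, 469, 384 and 541 CPM (-0.83 ± 0.20). Elf1, Nfkb1, Serpina3f and Cited2 are members of no list and were named after their values were seen.

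Against group 8, the replication genes ran the other way. Of 1855 tested genes, 89 were higher (4.8%) and 92 lower (4.96%). Of 17 S phase genes, 13 were lower and 0 higher, with a median of -0.95. Pcna was at 373, 581, 520 and 712 CPM in group 8 (-0.97 ± 0.19 in group 5 against it), without overlap, Lig1 at 326, 264, 489 and 776 CPM (-1.38 ± 0.23), without overlap, and Mcm5 at 279, 621, 387 and 617 CPM (-0.95 ± 0.20), with overlap. Mcm7 (-1.03 ± 0.23), Mcm2 (-1.02 ± 0.26) and Mcm6 (-0.71 ± 0.15) were lower too. Tuba1b was at 2375, 2219, 2945 and 2413 CPM in group 8 (-1.30 ± 0.09), and 4 of 6 G2/M genes were lower. The growth genes Cdk4, Ran and Ranbp1 were lower in group 5, 3 of 7 of their list. TTTGGCGC was found in the promoter windows of 3 of the 11 S phase genes with an entry among the 13 lower ones (27.3%). At least 2 CCAAT boxes were found for 6 of the 11 (54.55%), near the share given for the lower G2/M genes.

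Some HSC genes were higher than in group 8. Of 22 tested, Mecom, Mllt3, Txnip and Hlf were higher and 0 lower, 20 lay above 0, and the median was 0.43. Mecom was at 23.3, 66.0, 81.5 and 53.2 CPM in group 8 against 272, 223, 118 and 217 CPM in group 5 (1.72 ± 0.38), Mllt3 at 93.2, 79.2, 81.5 and 53.2 CPM against 159, 148, 196 and 217 CPM (1.34 ± 0.36), and Txnip at 559, 528, 601 and 606 CPM against 907, 1160, 1399 and 1555 CPM (1.22 ± 0.13), each without overlap. Hlf was at 1.03 ± 0.21 with overlap. Stat3 was at 233, 185, 173 and 138 CPM in group 8 (1.40 ± 0.23) and Ypel3 at 168 ± 124 CPM (SD, 1.52 ± 0.27). Rtp4 (1.25 ± 0.37), Dusp2 (1.02 ± 0.28) and the progenitor factor gene Sox4 were higher as well. The comparisons with group 4 and group 8 share the group 5 libraries, so their values stand side by side and were not tested against each other.

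Across all groups the levels show where group 5 lay. Mean Pcna was 98.4 CPM in group 10, 118 in group 4, 137 in group 2, 189 in group 3, 263 in group 7, 277 ± 37.8 (SD) in group 5, 340 in group 6, 546 in group 8 and 691 in group 9, and its neighbours 7 and 6 did not differ from it beyond their spread. Mcm5 had group 5 in the same place, at 250 ± 49.4 CPM between groups 7 and 6. Mecom was highest in group 5, at 207 ± 64.8 CPM, next to 154 ± 62.1 in group 4 and 127 ± 101 in group 2, which overlapped it. Stat3 was highest in group 5 by its mean, at 482 ± 167 CPM, next to 479 ± 318 in group 2 and 394 ± 225 in group 7. Rtp4 was highest in group 5, at 213 ± 68.5 CPM, next to 182 ± 80.6 in group 3, and Dusp2 was highest there too, at 289 ± 120 against 213 ± 120 CPM in group 3. None of these 4 first places exceeded the spread of the next group. Tuba1b was 983 ± 25.6 CPM in group 5, between 787 ± 292 in group 2 and 997 ± 109 in group 4. Groups 6, 7 and 10 held 33, 86 and 42 cells, so their plate values rest on few UMIs.

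**Figure D3:**
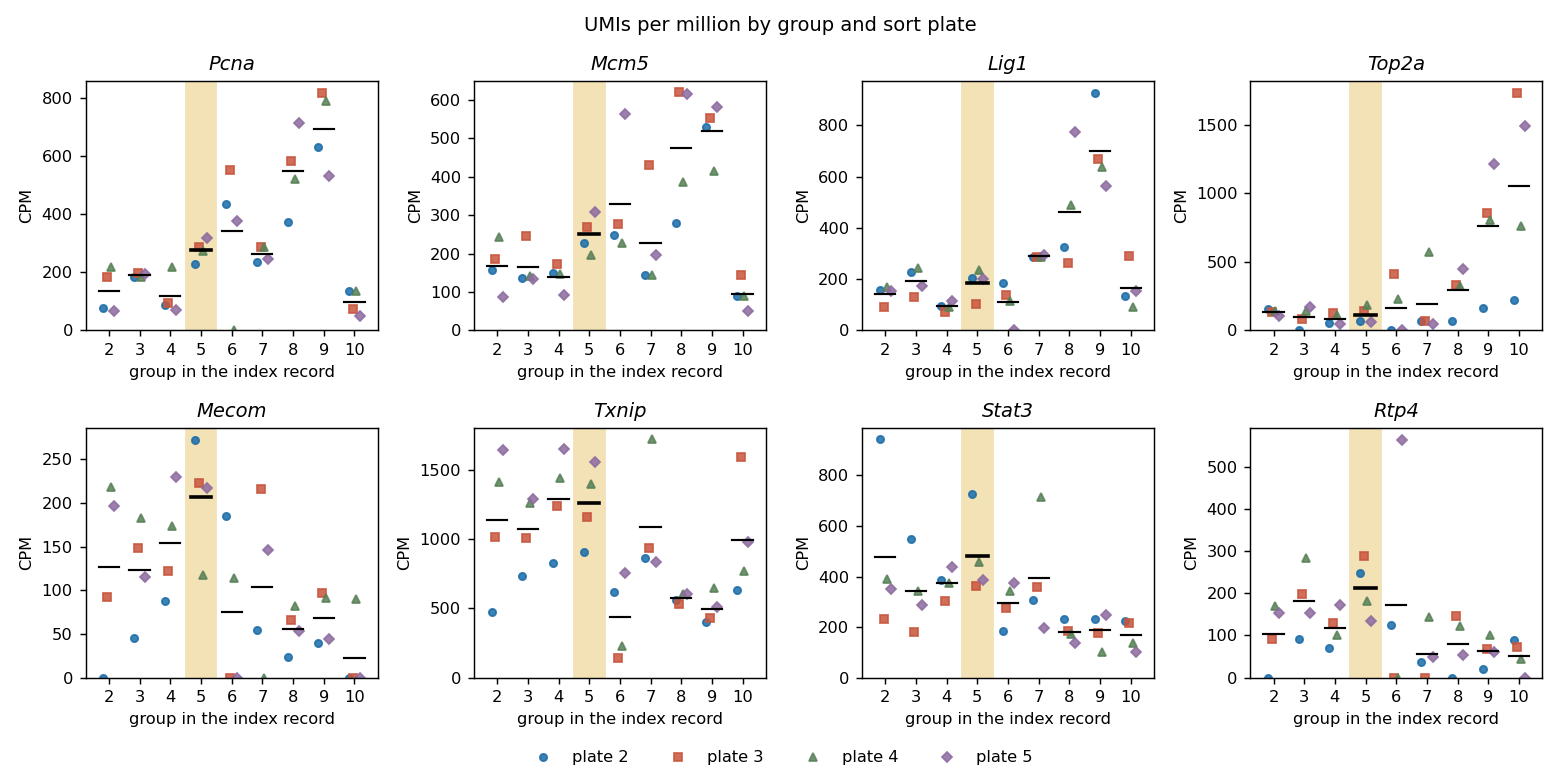
CPM of 8 genes (vertical axes, from 0) in groups 2 to 10 (horizontal axes), with 1 point per sort plate and a bar at the mean of the 4 plates, and group 5 shaded. Pcna, Mcm5 and Lig1 of group 5 lie between groups 4 and 8, Top2a lies with groups 2 to 4, and Mecom, Stat3 and Rtp4 have their highest mean in group 5, with overlap.

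The cytometer placed group 5 among the dimmer and narrower cells. Channels were ranked within each plate from 0 to 100, and the mean rank of group 5 was compared with that of other cells by flipping the signs of the 4 plate differences in every combination (exact permutation test, two-sided, smallest possible p 0.125). Over the 42 tests (14 channels against the other cells, group 4 and group 8) the smallest Benjamini-Hochberg adjusted p was 0.292, reached by 18 tests, so none could pass 0.05. CFP had a mean rank of 42.0 ± 0.8 in group 5 and 51.9 in the other cells. The difference was -9.2, -11.4, -9.9 and -9.2 in plates 2, 3, 4 and 5, lower in 4 of 4 plates (-9.9 ± 1.1, SD, exact permutation p = 0.125). Of the cells of group 5, 23 (9.09%) were among the brightest 20% of their plate and 64 (25.3%) among the dimmest 20%, against 22.6% and 18.9% of the other cells. By mean rank the group was near group 4 (39.2, difference 2.8 ± 2.7, exact permutation p = 0.25). It was below group 8 (62.6, difference -20.6 ± 3.9, lower in 4 of 4 plates, exact permutation p = 0.125). Mean CFP ranks were low in groups 2, 3 and 7 too, at 41.7, 44.0 and 41.0, so a low CFP rank was not particular to group 5.

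Pulse width was lower than in the other cells in forward and side scatter, but not lower than in group 4. Forward scatter width differed by -10.4, -5.1, -11.9 and -7.4 ranks from the other cells (-8.7 ± 3.0, exact permutation p = 0.125) and side scatter width by -7.8, -3.1, -7.1 and -5.5 (-5.9 ± 2.1, p = 0.125). Forward scatter area, a measure of cell size, differed by -11.4 in plate 2 and by -2.1, -0.2 and -0.4 in plates 3, 4 and 5, so its mean of -3.5 rests on plate 2. Without that plate it was -0.9. Side scatter area and height were higher in plate 2 and lower in plates 3, 4 and 5. Against group 8 forward scatter width differed by -13.6 ± 7.5 and side scatter area by -13.6 ± 10.0, lower in 4 of 4 plates each. Against group 4 forward and side scatter width differed by 1.9 ± 3.3 and 2.1 ± 4.0, higher in 3 of 4 plates each. Mean forward scatter width ranks were low in groups 3, 4 and 7 too, at 44.1, 41.0 and 44.7 against 42.9 in group 5.

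The record names dyes and no antibody, so a channel cannot be tied to a surface marker here. Against group 4, PE-Cy7 was higher in 4 of 4 plates (6.3, 11.4, 11.5 and 6.1 ranks, mean 8.8 ± 3.0), APC-Alexa Fluor 750 was higher (9.7, 2.6, 14.9 and 4.8, mean 8.0 ± 5.5), DAPI was higher (13.4, 1.4, 8.2 and 6.1, mean 7.3 ± 5.0) and Alexa Fluor 700 was lower (-8.3, -3.6, -17.5 and -12.8, mean -10.6 ± 5.9), each with an exact permutation p of 0.125. By mean rank group 5 lay between groups 4 and 8 in PE-Cy7 (42.2, 51.1 and 57.2 in groups 4, 5 and 8) and in APC-Alexa Fluor 750 (41.4, 49.4 and 58.9), and near group 8 in Alexa Fluor 700 (56.5, 46.0 and 43.6). Plate 2 went against the other plates in the comparison with group 8 for PE-Cy7 (8.8 against -9.6, -14.6 and -9.2), APC-Alexa Fluor 750 (1.9 against -14.5, -11.4 and -13.9) and DAPI (7.0 against -10.2, -22.2 and -10.0). Wells with a spreadsheet error in place of a value were left out of that channel: in group 5 the PE value was missing for 8 cells, the PE-Cy5 value for 4, the PE-Cy7 value for 15 and the DAPI value for 16.

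**Figure D4:**
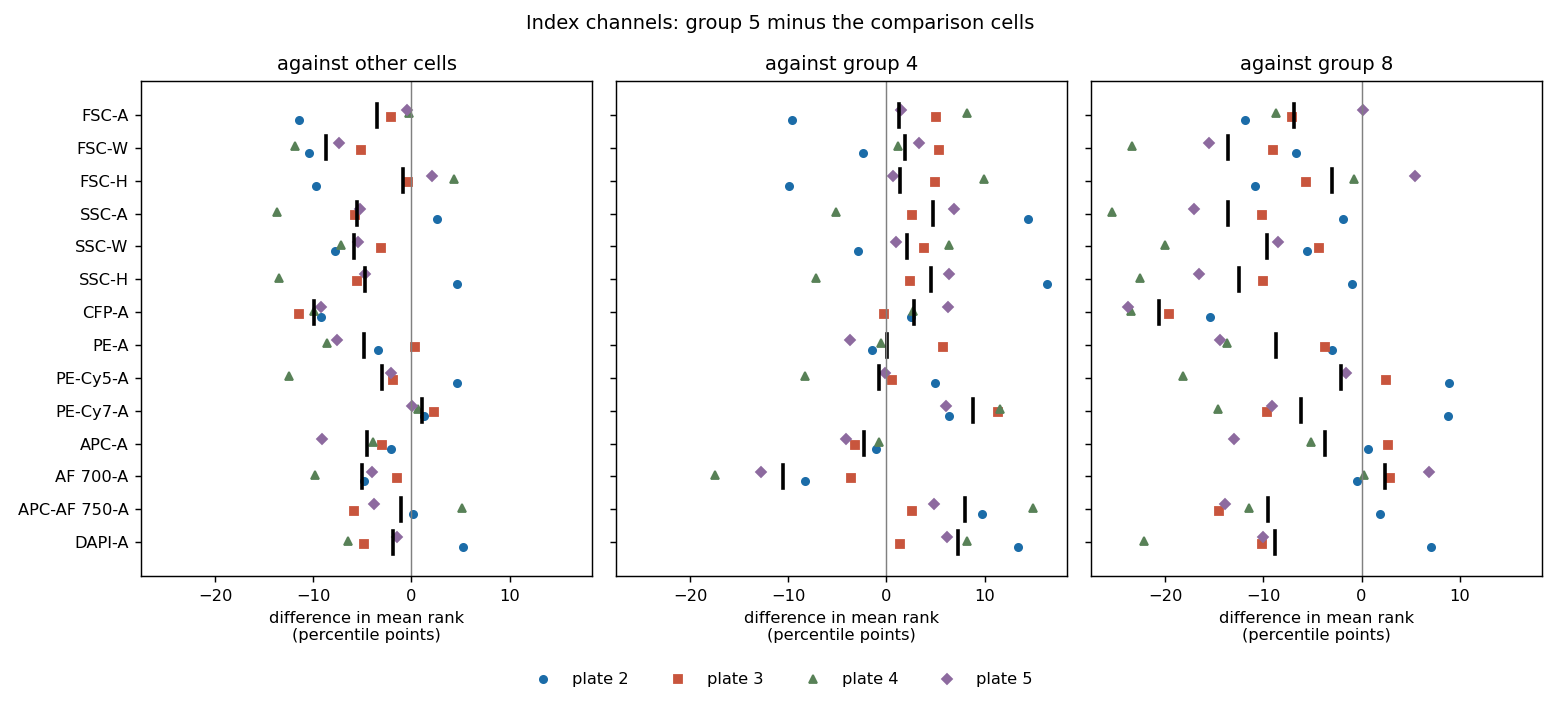
Difference in mean percentile rank within plate, group 5 minus the comparison cells (horizontal axes), for 14 index channels (rows), with 1 point per sort plate and a bar at the mean. CFP and the widths lie left of 0 against the other cells in 4 of 4 plates, and PE-Cy7, APC-Alexa Fluor 750 and DAPI lie right of 0 against group 4.

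Within group 5, no gene passed a test between brighter and dimmer cells. Cells of group 5 were split at their median CFP in each plate, into 17, 38, 31 and 42 brighter and 17, 37, 30 and 41 dimmer cells, and compared by edgeR's quasi-likelihood test with Benjamini-Hochberg adjustment. Of 844 genes tested, 0 passed an adjusted p of 0.05 (0%), 31 had an unadjusted p under 0.05, and DESeq2 called 0 with 3 unadjusted. The gene with the lowest p was the chaperone Hsp90ab1 (log2 fold change 0.33 ± 0.10, edgeR adjusted p = 0.986, higher in 3 of 4 plates). Pcna was at 0.30 ± 0.31, Mcm5 at -0.30 ± 0.35, Mcm6 at 0.21 ± 0.26, Ifitm1 at -0.11 ± 0.13 and Txnip at 0.01 ± 0.16. These libraries held 21102 to 70067 UMIs, which limits the test to abundant genes. The medians of CFP on the record's log10 scale were 2.82 to 2.83 in the brighter and 2.80 in the dimmer cells of each plate, and brighter cells had 1233 to 1543 UMIs at the median against 1068 to 1300.

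The CFP contrast was then set beside that of the other cells. When the other cells were split at their own median in the same way, 8 of 3511 genes (0.228%) passed edgeR's quasi-likelihood test of the difference between the 2 contrasts at an adjusted p of 0.05, and 288 had an unadjusted p under 0.05. The other cells mix groups of unlike CFP, with mean ranks from 39.2 in group 4 to 76.6 in group 9. Their contrast can therefore include differences between groups, and whether the contrasts differ over a like range of CFP was not tested. The group number may also have been made from the same counts and so have fixed the range of the passing genes in group 5. The calls are therefore given as a description. Among them were 0 of 25 S phase, 2 of 18 G2/M and 4 of 9 linker and core histone genes. Of these 8, 6 were tubulin, histone or chromatin genes with a positive contrast in the other cells. Tuba1b had a mean of 926 CPM in brighter and 1044 CPM in dimmer cells of group 5, and 2592 and 1288 CPM in the other cells, a difference of contrasts of -1.11 ± 0.18 (SE). Hmgb2 had 156 and 208 CPM in group 5 against 613 and 203 CPM (-1.85 ± 0.41). The linker histone genes Hist1h1d (-3.29 ± 0.63) and Hist1h1a (-2.72 ± 0.66), the entry for Hist1h1e, which also names Hist1h2be (-1.35 ± 0.25), and Hist1h2ae (-2.33 ± 0.59) differed in the same direction.

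The other 2 genes were lower in brighter other cells and even in group 5. Ifitm1 had 1971 CPM in brighter and 2174 CPM in dimmer cells of group 5, against 1439 and 2449 CPM in the other cells (difference 0.71 ± 0.13). Txnip had 1264 and 1252 CPM in group 5, against 706 and 1119 CPM (0.71 ± 0.17). With the 20% of cells strongest in cell-cycle genes left out, a setting chosen after seeing the data, 0 genes passed, but those cells were chosen by UMIs that include Tuba1b and Hmgb2. The difference was then -0.37 for Tuba1b, 0.09 for Ifitm1 and 0.21 for Txnip. Some calls rested on single plates. Hist1h2ae did not pass without plate 2 (-2.02), 4 (-2.12) or 5 (-2.56), Hmgb2 without plate 3 (-1.72), 4 (-1.74) or 5 (-1.93), and Hist1h1a without plate 3 (-2.49) or 5 (-2.46). Txnip did not pass without plate 3 (0.64) or 4 (0.63), Hist1h1d without plate 3 (-2.89) and Ifitm1 without plate 5 (0.49). Tuba1b and Hist1h1e passed without any 1 of the plates.

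**Figure D5:**
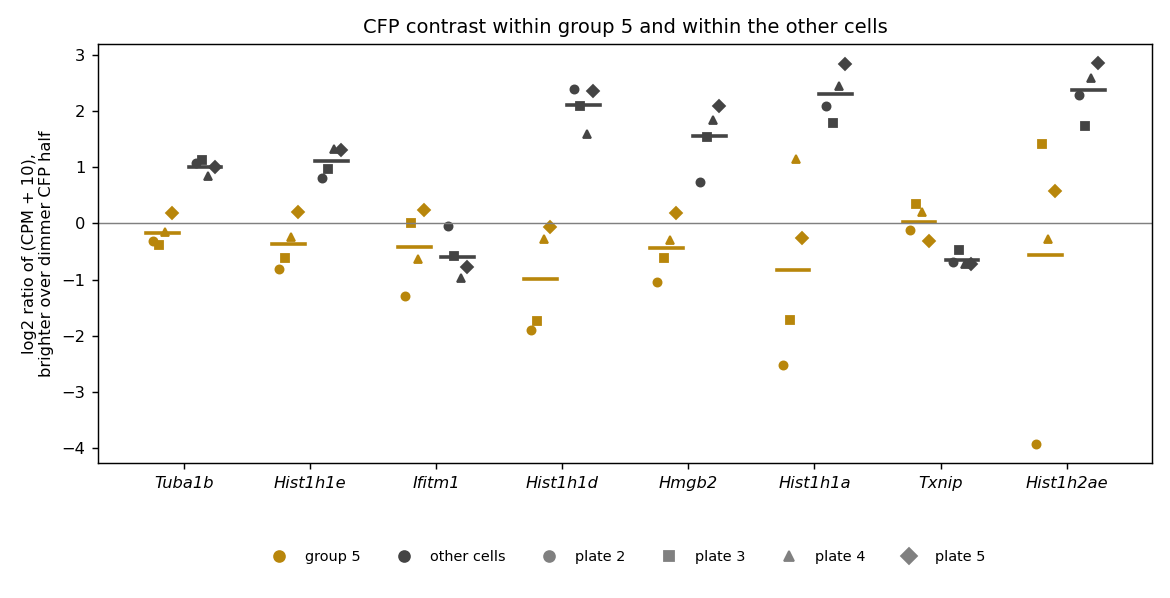
Log2 ratio of (CPM + 10), brighter over dimmer cells (vertical axis), for the 8 genes whose CFP contrast differed, with 1 point per sort plate and a bar at the mean, in group 5 (ochre) and the other cells (grey). The other cells lie away from 0 for 7 genes in 4 of 4 plates, with Ifitm1 of plate 2 near 0, and group 5 scatters around or below 0.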

How the data were processed

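The deposited table held UMI counts of 27297 gene entries in 1536 wells, and the deposited index record 1430 of those wells. The processing that turned reads into UMIs was not given in sources used here. Per the submitters' processing notes the tools were Bismark 0.19.0, bcl2fastq 2.15.0.4, cutadapt, STAR, featureCounts and DESeq2, with no role named. The scale of the index channels was read from the values: deposited scatter is a whole-number linear intensity, and the deposited CFP, APC, Alexa Fluor 700 and APC-Alexa Fluor 750 values are log10 of whole channel numbers. The deposited PE, PE-Cy5, PE-Cy7 and DAPI values are log10 values of the same kind, with spreadsheet errors in some wells. The 106 wells with no record (at most 502 UMIs) were left out.

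The members and gene lists were chosen with earlier results of these data known. UMIs were summed per plate and group, and genes were filtered with filterByExpr and scaled by TMM. They were fitted in edgeR 4.0.16 (R 4.3.3, limma 3.58.1) with plate as a term. The log2 CPM behind the likeness of groups was TMM-scaled with a prior count of 2, a setting not used in the fits. CPM elsewhere was not TMM-scaled. The residual degrees of freedom were 3 between groups and between CFP sets, and 9 for the difference of contrasts. The prior degrees of freedom, the weight of a variance shared over genes, were infinite for group 5 against the other cells. They were 40.2 for the CFP sets and 293 for the difference of contrasts. Genes were named when their mean was at least 100 CPM, their log2 fold change at least 0.58 and their direction shared by 4 of 4 plates, the 15 largest each way, plus members of the lists. Shares were thinned to 1000 UMIs, and index channels were ranked within a plate and tested in Python 3.11.15. The scripts were tested on simulated data. Alternatives included DESeq2 1.42.0, no filter on low counts, leaving out each plate and leaving out cycling cells. No doublet caller was run, since cells were sorted singly. Promoter sequences came from RefSeq (GRCm38.p6). Bulk RNA and bisulphite samples were not analysed here.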

Additional observations from a re-analysis of the deposited data

Results flagged for a closer look

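In 76 sets of 4 plate values checked for a plate far from the others, 5 had one, and chance alone gives about 1 in 20. The forward scatter area rank of group 5 minus the other cells was -11.4 in plate 2, against -2.10, -0.217 and -0.435 in plates 3, 4 and 5. The log2 CPM difference of Tk1 was -4.01 in plate 2, where group 5 had no UMI of it, against -2.10, -1.95 and -2.15. That of Pgp, a phosphatase gene, was -2.01 in plate 2 against -0.829, -0.790 and -0.845. That of Hmgb2 was -1.07 in plate 4 against -1.33, -1.38 and -1.33, and that of Cdk1 was -1.83 in plate 5 against -0.668, -0.791 and -0.577.

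The other cells mix groups of unlike CFP, and the group number may have been made from the same counts. With these limits, the CFP contrast of group 5 minus that of the other cells passed edgeR's test for 8 genes. It was -1.11 for Tuba1b, -1.35 for the Hist1h1e entry, -3.29 for Hist1h1d, -1.85 for Hmgb2, -2.72 for Hist1h1a, -2.33 for Hist1h2ae, 0.71 for Ifitm1 and 0.708 for Txnip.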

How the results depend on the processing

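No paired analysis was possible because the groups that share replicate numbers are bulk and bisulphite samples whose files are not used here, and the single-cell table pools its samples, so only plate, not replicate number, entered as a term. Against the other cells, 115 genes were higher and 265 lower. These counts were 176 and 943 of 13132 tested genes with no filter on low counts. They were 65 and 102 of 4024 with strongly cycling cells (the top 20% of a plate) left out. They were 219 to 280 and 353 to 411 without 1 plate, where fewer plates must share a direction. With cycling cells left out, Top2a (0.026), Hist1h1a (0.041), Hist1h2ae (0.49), Spc24 (0.44), Cdk1 (0.11), Lig1 (0.045), Uhrf1 (0.48), Dnmt1 (0.00059) and Hist1h1e (0.14) turned from below to above 0. Of 76 named genes, 47 could be fitted there, of which 28 kept their value within its spread. With the other groups weighted equally, 143 genes were higher and 207 lower, of which 65 and 169 were shared with the pooled comparison, and 13 of 76 named genes moved beyond their spread. DESeq2 reversed 0 of 76, and shared 114 of its 131 higher and 260 of its 275 lower genes with edgeR.

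Against group 4, 50 higher and 69 lower genes became 252 and 546 with no filter, and 89 to 112 and 109 to 135 without 1 plate. Against group 8, 89 and 92 became 489 and 413 with no filter, and 112 to 186 and 116 to 175 without 1 plate. The alternatives of these 2 comparisons were chosen after seeing the data. The thinned S and G2/M difference of -0.469 was -0.375 without thinning. Without 1 plate, the rank difference from the other cells ran from -2.64 to 2.03 for forward scatter height, -5.49 to 0.207 for PE-Cy5 and -3.14 to 0.51 for APC-Alexa Fluor 750. With cycling cells left out it was 0.39 for side scatter height, 6.23 for APC-Alexa Fluor 750 and 3.12 for DAPI, and over cells with at least 1000 UMIs it was -0.408 for PE-Cy7. Between brighter and dimmer cells of group 5, 1 gene passed with no filter and 0 to 1 without 1 plate. For the difference of contrasts, 5 genes passed with no filter, 13 over cells with at least 1000 UMIs, 0 with cycling cells left out and 4 to 9 without 1 plate. The cause of these shifts was not tested. Depth limits the group 5 library of plate 2 most, at 44085 UMIs.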
